A study of Mus musculus with 7 samples.

Results

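The expression of 10 genes was followed across 7 mouse tumours. Of the genes, 4 were listed as identity genes of regulatory T cells (Foxp3, Il2ra, Ikzf2 and Ccr8), though not all are confined to them. The others were 3 receptors of the CD28 family (Ctla4, Icos and Cd28) and 3 costimulatory receptors of the TNF receptor family (Tnfrsf4, Tnfrsf9 and Tnfrsf18). The genes were taken by symbol from a list, and all 10 were found among the 28233 genes of the deposited expression table. The tumours were B16mhgp100 (spelled B16mghp100 in another field of the labels), a derivative of the B16 mouse melanoma line, implanted subcutaneously in C57BL/6 mice. In 4 of them, Cr1l 1 to Cr1l 4, Cr1l was over-expressed; its product, Crry, is a complement regulator on the surface of mouse cells. The other 3, Vec 5, Vec 6 and Vec 7, carried the vector. All mice, the vector controls included, received an antibody against PD-1 (200 µg per dose, 2 doses per week, 4 doses in all) from day 10 after inoculation, and harvest followed the last dose by 1 day. The age and sex of the mice, the means of introducing Cr1l and whether a line was 1 clone were not given in the sources used here. Without a tumour that received no antibody, the effect of the antibody was not measured.

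Regulatory T cells are CD4+ T cells that hold other lymphocytes in check, and in tumours they dampen the response against the tumour cells. Foxp3 is the transcription factor that sets their identity, and they carry the high-affinity IL-2 receptor chain, CTLA-4, GITR and OX40 at high levels. A T cell needs a second signal beside its antigen receptor: CD28 and ICOS give it, CTLA-4 competes with CD28 for the same ligands, and receptors of the TNF family such as 4-1BB, OX40 and GITR prolong it. Most of these receptors also appear on activated conventional T cells, and 4-1BB also on NK cells and myeloid cells, so that none but Foxp3 approaches a marker of 1 cell type.

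Values are TPM, the relative abundance of a gene's transcripts corrected for their length, which can be set against each other within a tumour. They summed to between 993520 and 996031 per tumour. Read depth per tumour, not given in the sources used here, cannot be had from TPM, so the counting error of each value is unknown. In RNA of whole tumours, fewer cells of a type and less RNA per cell cannot be told apart. The over-expressed gene, Cr1l, measured 76.37, 78.56, 77.91 and 83.57 TPM in tumours labelled Cr1l and 52.41, 46.29 and 54.94 TPM in the Vec tumours, on the side each label gives. The melanocyte genes that mark B16 cells were abundant in both groups, summing over 7 genes to between 8872 and 19764.5 TPM in Cr1l tumours and between 12899 and 20010 TPM in Vec tumours. Cr1l 3 and Cr1l 4 stood apart as rich in leukocyte RNA. Macrophage and monocyte genes summed to 5774 TPM in Cr1l 3 and 4892 TPM in Cr1l 4, against 507.2 to 1586 TPM in the other 5 tumours. Genes of the T cell receptor complex and coreceptors summed to 333 and 119 TPM in Cr1l 3 and Cr1l 4, against 21.3 to 62.2 TPM in the others. The members' fold changes and ratios were therefore also computed without those tumours.

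The sequences upstream of the transcription start are shown for the 3 genes on which the comparison turns, Ctla4, Il2ra and Tnfrsf9: Il2ra and Tnfrsf9 are the members whose groups did not overlap, and Ctla4 is the member with a negative fold change. They are the 250 bases before each start, from RefSeq on GRCm38.p6, an older build than the mm39 named for the expression data; RefSeq windows matched 7 of the 10 genes. Capitals mark GGAAA or its reverse complement, the core letters bound by NFAT, the factor that T cell receptor signals activate. The Ctla4 window is chr1:60908775-60909024, the Il2ra window chr2:11642542-11642791, and Tnfrsf9 has a window at chr4:150919905-150920154 (start 1) and another at chr4:150927749-150927998 (start 2), all on the plus strand.
Ctla4: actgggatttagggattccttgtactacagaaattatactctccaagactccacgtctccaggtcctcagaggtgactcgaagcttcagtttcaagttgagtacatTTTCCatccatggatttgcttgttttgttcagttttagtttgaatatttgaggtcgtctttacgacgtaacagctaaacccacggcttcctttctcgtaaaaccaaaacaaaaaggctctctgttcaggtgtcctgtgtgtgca
Il2ra: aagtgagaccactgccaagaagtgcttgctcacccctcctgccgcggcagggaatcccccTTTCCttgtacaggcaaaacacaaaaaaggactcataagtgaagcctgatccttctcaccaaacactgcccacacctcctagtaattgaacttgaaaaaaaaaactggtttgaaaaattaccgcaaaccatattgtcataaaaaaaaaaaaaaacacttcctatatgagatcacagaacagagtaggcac
Tnfrsf9 start 1: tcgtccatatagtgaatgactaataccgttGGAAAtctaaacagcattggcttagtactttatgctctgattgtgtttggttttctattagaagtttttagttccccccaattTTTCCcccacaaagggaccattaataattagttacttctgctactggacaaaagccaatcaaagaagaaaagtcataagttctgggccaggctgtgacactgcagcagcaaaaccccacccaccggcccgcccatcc
Tnfrsf9 start 2: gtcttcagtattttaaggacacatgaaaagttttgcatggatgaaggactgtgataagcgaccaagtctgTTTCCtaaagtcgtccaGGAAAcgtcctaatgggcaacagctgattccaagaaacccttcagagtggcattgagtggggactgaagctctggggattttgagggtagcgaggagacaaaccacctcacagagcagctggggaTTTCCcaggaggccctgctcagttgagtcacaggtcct
The core stood once in the Ctla4 and Il2ra windows, and it had 2 matches at Tnfrsf9 start 1 and 3 at start 2. On either strand it is present in 55.6% of 32851 such windows, so its presence sets none of these apart. The forkhead core TGTTTAC, letters that FOXP3 and its relatives bind, had 0 matches on either strand in these windows, and 3.17% of all windows hold it. These are matches of letters only.

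Over all 7 tumours, Tnfrsf9, which encodes 4-1BB, was the most abundant of the genes, with a mean of 26.0 TPM. It exceeded the next gene, Tnfrsf18, in 7 of 7 tumours. Tnfrsf18 (8.71 TPM), Tnfrsf4 (8.64 TPM) and Ctla4 (6.41 TPM) followed, and their order changed between tumours: Tnfrsf18 exceeded Tnfrsf4 in 3 of 7, and Tnfrsf4 exceeded Ctla4 in 5 of 7. The remaining genes were low, with means of 2.98 TPM for Ikzf2, 2.70 for Icos, 1.99 for Foxp3, 1.95 for Il2ra, 1.31 for Cd28 and 1.24 for Ccr8. Within that group the only neighbours ordered the same way in more than 5 tumours were Il2ra and Cd28 (6 of 7). All 10 genes were above 0 in every tumour.

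The 4 Cr1l tumours differed widely from one another. Of the 10 genes, 9 were highest in Cr1l 3 and the tenth, Tnfrsf9, in Cr1l 4; Cr1l 3 was the highest tumour for 20.9% of all genes tested. Vec 7 was lowest for 6 of them. Together the genes summed to 34.2, 39.9, 141 and 99.7 TPM in Cr1l 1 to Cr1l 4, against 51.0, 44.5 and 23.5 TPM across the 3 Vec tumours. Thus Cr1l 1 and Cr1l 2 lay below Vec 5 and Vec 6, and Cr1l 3 and Cr1l 4 above all Vec tumours. Pearson's r between the 45 pairs of genes over the 7 tumours had a median of 0.833 (-0.157 to 0.985), and over the 6 tumours without Cr1l 3 a median of 0.638 (-0.534 to 0.994). These are descriptions. The tumours also differed in leukocyte RNA, and its part in these correlations was not tested.

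**Figure D1:**
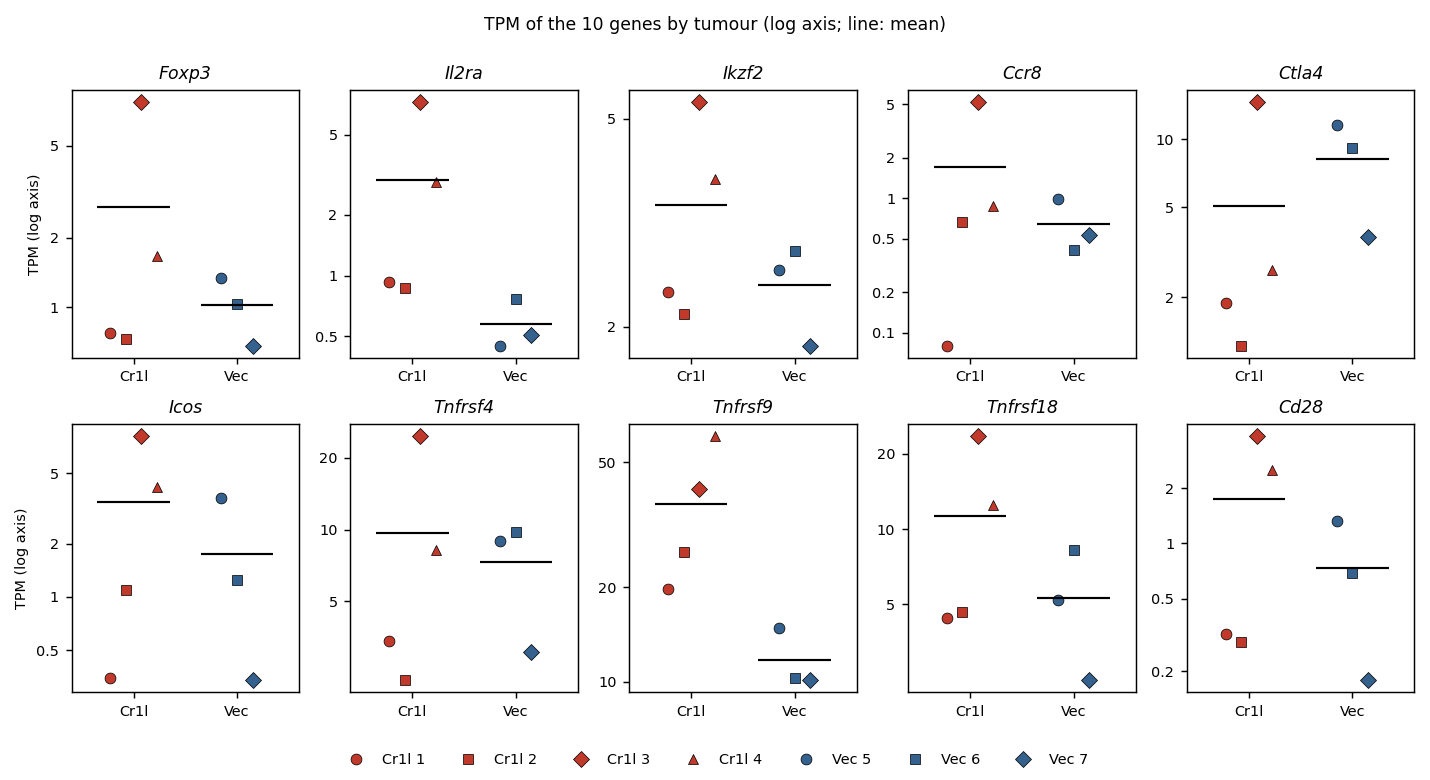
TPM (log axis) of each of the 10 genes in the 4 Cr1l and 3 Vec tumours, 1 symbol per tumour, with the group mean as a line. Cr1l 3 is highest in 9 panels, and the groups separate fully only for Il2ra and Tnfrsf9.

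Tumours with over-expressed Cr1l were compared with vector tumours, all under the antibody. An effect of Cr1l and another difference between the implanted cells of the groups cannot be told apart here. All genes that averaged 1 TPM or more, 14954 including the 10 members, were tested on log2(TPM + 1) with limma, and p-values were adjusted over all of them. Of the 10 genes, 0 passed an adjusted p of 0.05, which 0.0134% of all genes passed, and 1 (Tnfrsf9) had an unadjusted p below 0.05 with a higher level, against 9.49% of all genes. In the DESeq2 results of the authors' deposited table, Tnfrsf9 and Il2ra were called higher, where 4.74% of its genes were called higher. Log2 fold changes were positive for 9 of 10 genes, against 55.4% of all genes tested, with a median of 0.49 against 0.05. Il2ra, Ccr8 and Cd28 averaged under 1 TPM in Vec tumours and reached the filter through the Cr1l tumours, which favours positive values, as for 951 of all genes tested. Of the other 7 members, 6 were positive. Ctla4 alone was negative. The count of positive signs depended on Cr1l 3 and Cr1l 4. Without Cr1l 3, 6 of the 8 genes that still reached 1 TPM on average were positive, and without Cr1l 3 and Cr1l 4 it was 1 of 6. The groups did not overlap for 2 of the 10, both higher in Cr1l tumours, where 9.29% of all genes were higher without overlap and 6.67% lower.

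**Figure D2:**
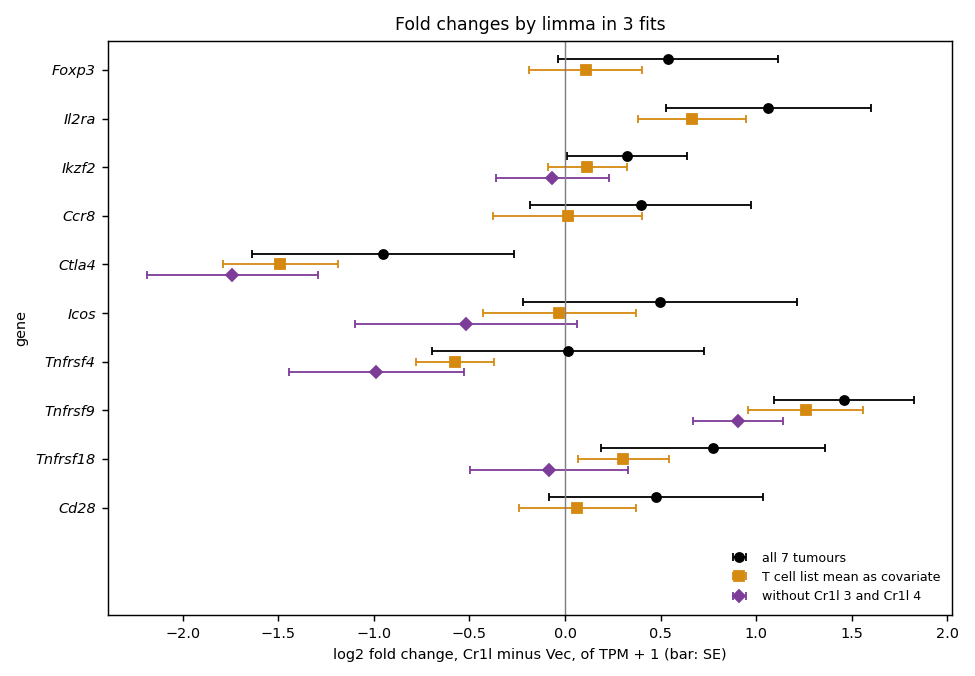
Log2 fold change (Cr1l minus Vec, of TPM + 1) of each gene with its standard error, by limma in 3 fits: all 7 tumours, the same with the T cell list mean as a covariate, and without Cr1l 3 and Cr1l 4, where 6 genes reached the filter. Tnfrsf9 lies above 0 and Ctla4 below 0 in all 3 fits.

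Among the identity genes, Foxp3 did not separate the groups. It stood at 0.77, 0.73, 7.71 and 1.67 TPM in Cr1l tumours and at 1.34, 1.03 and 0.68 TPM in Vec tumours. Cr1l 3 was several times above every other tumour, and Cr1l 1 and Cr1l 2 were among the lowest. The means were 2.72 ± 3.35 TPM (SD, n = 4) in Cr1l tumours and 1.02 ± 0.330 TPM (SD, n = 3) in Vec tumours, and the log2 fold change by limma was 0.54 (SE 0.57) with an adjusted p of 0.649, or 0.012 without Cr1l 3. The authors' deposited table gave 1.39 with an adjusted p of 0.317. Foxp3 shares exons with Ccdc22 on the opposite strand, at 20.5 to 28.0 TPM over the tumours, and the libraries do not keep strand, so reads of the shared stretch could not be told apart.

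Il2ra encodes CD25, the chain that gives the IL-2 receptor its high affinity. It stood at 0.93, 0.87, 7.22 and 2.92 TPM in Cr1l tumours and at 0.45, 0.77 and 0.51 TPM in Vec tumours. Every Cr1l tumour was above every Vec tumour, although Cr1l 1 and Cr1l 2 exceeded Vec 6 by little. The log2 fold change was 1.06 (SE 0.54, adjusted p = 0.367 by limma) and 0.62 without Cr1l 3. The authors' deposited table gave 2.30 with an adjusted p of 0.0449.

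Ikzf2 encodes Helios, a zinc finger factor of thymus-derived regulatory T cells, and was the least variable of the genes. It stood at 2.33, 2.12, 5.37 and 3.83 TPM in Cr1l tumours and at 2.57, 2.79 and 1.84 TPM in Vec tumours, for which limma gave 0.33 on the log2 scale (SE 0.31, adjusted p = 0.614), and 0.13 without Cr1l 3 or 0.20 without Vec 7. Ccr8, a chemokine receptor found on regulatory T cells inside tumours, stood at 0.08, 0.66, 5.17 and 0.88 TPM in Cr1l tumours and at 0.98, 0.41 and 0.53 TPM in Vec tumours (0.40, SE 0.58, adjusted p = 0.749). Both sets of values overlapped. Ccr8 reached a mean of 1 TPM only through Cr1l 3, which also holds for Cd28.

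Ctla4 was the member with a negative fold change. The inhibitory receptor stood at 1.88, 1.22, 14.60 and 2.64 TPM in Cr1l tumours and at 11.61, 9.20 and 3.69 TPM in Vec tumours. Cr1l 1, Cr1l 2 and Cr1l 4 lay below every Vec tumour, and Cr1l 3 above them. The log2 fold change was -0.95 (SE 0.68, adjusted p = 0.503 by limma); without Cr1l 3 it was -1.57 (SE 0.41, adjusted p = 0.259). The authors' deposited table gave -0.72 (SE 0.81) and held no p-value for it. Across all settings the fold change stayed negative, between -1.74 and -0.63, with an adjusted p of 0.0815 to 0.806.

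The costimulatory members of the same family overlapped between groups. Icos, which supports helper and regulatory T cells, stood at 0.35, 1.09, 8.06 and 4.20 TPM in Cr1l tumours and at 3.63, 1.25 and 0.34 TPM in Vec tumours (log2 fold change 0.50, SE 0.72, adjusted p = 0.747 by limma). Cd28, the main costimulatory receptor of naive T cells, stood at 0.32, 0.29, 3.84 and 2.53 TPM in Cr1l tumours and at 1.33, 0.69 and 0.18 TPM in Vec tumours (0.48, SE 0.56, adjusted p = 0.683). The Icos value was 0.024 without Cr1l 3, 0.073 without Vec 7 and 0.97 without Vec 5, and that of Cd28 was 0.23 without Vec 7. Each had its highest value in Cr1l 3, and values in Cr1l 1 lay near those in Vec 7.

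Tnfrsf9 had the smallest p among the 10 genes. Its product 4-1BB is induced on activated T and NK cells and sustains their survival. It stood at 19.71, 25.87, 41.08 and 60.32 TPM in Cr1l tumours and at 14.88, 10.30 and 10.16 TPM in Vec tumours. All Cr1l tumours were above all Vec tumours, Cr1l 1 and Cr1l 2 included. The means were 36.7 ± 18.1 TPM (SD, n = 4) in Cr1l tumours and 11.8 ± 2.69 TPM (SD, n = 3) in Vec tumours. The log2 fold change was 1.46 (SE 0.37) with an unadjusted p of 0.00422 and an adjusted p of 0.194 by limma. It was 1.36 without Cr1l 3 and 0.90 (adjusted p = 0.228) without Cr1l 3 and Cr1l 4. The authors' deposited table gave 1.61 (SE 0.42, adjusted p = 0.00671). In the share it took of the summed TPM of the 10 genes, Tnfrsf9 held 57.7%, 64.9%, 29.1% and 60.5% across the 4 Cr1l tumours, against 29.2%, 23.2% and 43.3% across the 3 Vec tumours, so that Cr1l 3 lay among the Vec tumours.

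Tnfrsf9 is not confined to T cells, and markers of NK and dendritic cells are given beside it. The 9 NK cell genes summed to 19.4, 18.3, 172 and 98.9 TPM across the 4 Cr1l tumours, against 28.4, 35.3 and 20.1 TPM across the 3 Vec tumours. The 9 dendritic cell genes summed to 67.5, 86.3, 271 and 166 TPM across the 4 Cr1l tumours, against 83.1, 62.8 and 33.0 TPM across the 3 Vec tumours. The defining NK receptor gene Ncr1 was at 0.81, 0.21, 7.00 and 4.88 TPM in Cr1l tumours, against 0 in Vec 5 and Vec 6 and 0.11 TPM in Vec 7. Ncr1, Klrc1 and Gzmb were chosen after their values were seen. Of the 9 NK cell genes, 8 had positive fold changes. Ncr1, Klrb1c and Eomes were higher without overlap, as were 9.29% of all genes tested. These 3 reached the filter through the Cr1l tumours, which favours positive values. In Cr1l 1 and Cr1l 2, Klrc1 (0.67 and 0.7 TPM) and Gzmb (4.88 and 6.24 TPM) were below all 3 Vec tumours. In Cr1l 3 both were above all 3. The NK sums of Cr1l 1 and Cr1l 2 were below all 3 Vec tumours, whereas their Ncr1 levels, and the dendritic cell sum of Cr1l 2, were above all 3. The part of these cells in the Tnfrsf9 difference was not tested.

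The other TNF receptor genes did not separate the groups. Tnfrsf18, which encodes GITR, stood at 4.40, 4.66, 23.46 and 12.47 TPM in Cr1l tumours and at 5.23, 8.22 and 2.50 TPM in Vec tumours (log2 fold change 0.77, SE 0.59, adjusted p = 0.524 by limma). Without Cr1l 3 it was 0.34 and without Vec 7 it was 0.40. The antisense gene Gm16008, chosen after its values were seen because it shares exons with Tnfrsf18, stood at 4.33 to 7.14 TPM in Cr1l tumours and 1.07 to 1.92 TPM in Vec tumours. Reads of the 2 cannot be told apart in these libraries. Tnfrsf4, which encodes OX40, stood at 3.39, 2.34, 24.64 and 8.23 TPM in Cr1l tumours and at 8.98, 9.82 and 3.05 TPM in Vec tumours, with a log2 difference of 0.016 (SE 0.71, limma adjusted p = 0.994). That value turned to -0.56 without Cr1l 3, and the 3 other Cr1l tumours lay within or below the range of Vec tumours.

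The genes were next set against the T cell genes of the same tumour, because T cell RNA differed so much between tumours. The list of 13 genes of the T cell receptor complex and coreceptors had mean log2(TPM + 1) levels of 1.73, 1.29, 4.50 and 3.06 across the 4 Cr1l tumours, against 2.32, 2.34 and 1.42 across the 3 Vec tumours. The groups overlapped: all 13 had positive fold changes, with a median of 0.48, against 55.4% of all genes and a median of 0.05. By limma 0 passed over all genes and 0 had an unadjusted p below 0.05, where 9.49% of all genes were higher. Cd4, the helper coreceptor that regulatory T cells carry, stood at 1.43, 1.80, 18.02 and 5.91 TPM in Cr1l tumours and 1.59, 1.52 and 0.33 TPM in Vec tumours (log2 fold change 1.41, adjusted p = 0.367). Cd8a, the coreceptor of cytotoxic T cells, stood at 1.54, 1.01, 18.38 and 7.36 TPM in Cr1l tumours and 4.04, 4.44 and 1.86 TPM in Vec tumours (0.33, SE 0.77, adjusted p = 0.850). Relative to the list mean, the levels of 2 members did not overlap between groups, both lower in Cr1l tumours, where 1.42% of all tested genes were lower in that way and 1.23% higher. Ctla4 stood -0.20, -0.14, -0.53 and -1.19 log2 units from the list mean in Cr1l tumours and at 1.34, 1.01 and 0.81 above it in Vec tumours. Tnfrsf4 stood 0.41, 0.45, 0.19 and 0.15 above the list mean in Cr1l tumours and 1.00, 1.09 and 0.60 above it in Vec tumours.

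**Figure D3:**
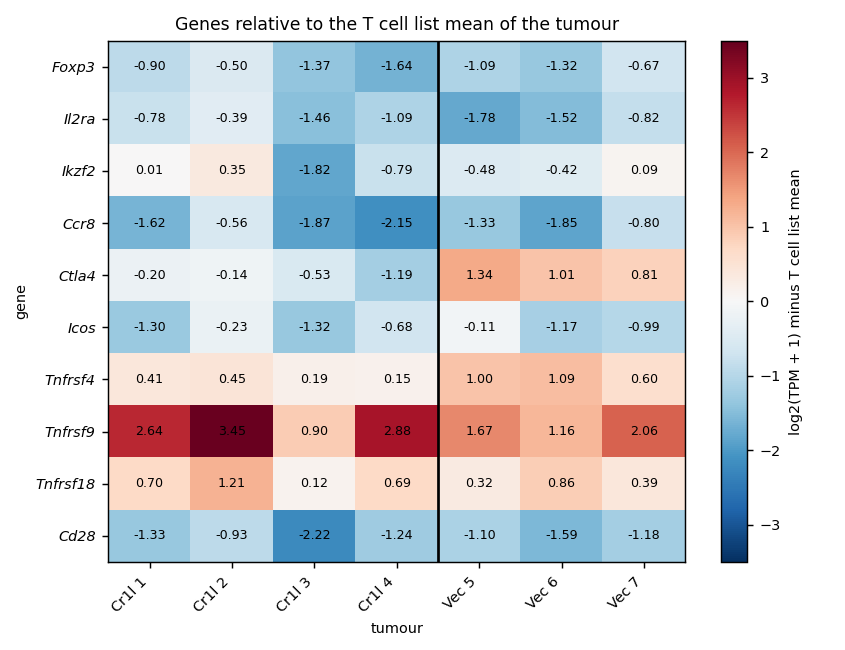
Level of each gene relative to the T cell genes of the same tumour, as log2(TPM + 1) minus the mean of the 13 T cell genes, with Cr1l tumours left of the line and Vec tumours right of it. The Ctla4 row is negative across the 4 Cr1l tumours, against positive across the 3 Vec tumours.

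With the T cell list mean as a covariate in the limma fit, the Ctla4 fold change was -1.49 (SE 0.30, unadjusted p = 0.00120, adjusted p = 0.0815) and that of Tnfrsf4 -0.57 (SE 0.21, adjusted p = 0.191). Both had an unadjusted p below 0.05, as did 7.12% of all genes on the lower side. Tnfrsf9 kept a positive fold change of 1.26 (SE 0.30, adjusted p = 0.109) and Il2ra one of 0.66 (SE 0.28, adjusted p = 0.251), with 12.6% of all genes higher at an unadjusted p below 0.05. Relative to the list mean itself, the groups overlapped for both genes. Tnfrsf9 stood 2.64, 3.45, 0.90 and 2.88 log2 units above it in Cr1l tumours and 1.67, 1.16 and 2.06 in Vec tumours. Cr1l 3 was thus the lowest tumour by that measure. The fold changes of Foxp3 (0.11), Ikzf2 (0.12), Ccr8 (0.014), Cd28 (0.064) and Icos (-0.030) were smaller than their standard errors, and that of Tnfrsf18 was 0.30 (SE 0.24). Of the 10 genes, 0 passed the adjusted threshold, which 0.475% of all genes passed.

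Ratios within a tumour gave the same quantity in another form. The TPM of Ctla4 was 0.620, 1.11, 0.706 and 0.357 times that of Cd3e, an invariant chain of the T cell receptor complex, in Cr1l tumours, and 3.49, 2.51 and 2.02 times in Vec tumours. The mean log2 ratio of (TPM + 1) was -0.52 ± 0.527 (SD, n = 4) in Cr1l tumours and 1.13 ± 0.407 (SD, n = 3) in Vec tumours. The difference of -1.65 had a two-sided p of 0.0286 by an exact permutation test over 35 splits, the smallest it can give, and an adjusted p of 0.114 over the 6 ratios examined. Ctla4 was 5.88, 4.21, 3.80 and 1.04 times Cd28 in Cr1l tumours and 8.73, 13.3 and 20.5 times Cd28 in Vec tumours (log2 difference -1.43, exact permutation p = 0.0571, adjusted p = 0.114). Against Foxp3, a ratio chosen after the values were seen and given without a test, Ctla4 was 2.44, 1.67, 1.89 and 1.58 times as abundant in Cr1l tumours and 8.66, 8.93 and 5.43 times in Vec tumours. Cr1l 3, with the highest Ctla4 level of all tumours, lay with the other Cr1l tumours in each of these ratios.

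Set against each of the 9 other members on log2(TPM + 1), Ctla4 was lower in Cr1l tumours without overlap for 8, the exception being Ikzf2. On plain TPM ratios it was 6 of 9. Relative to 14953 other tested genes the same held for 10.4%. No other member was lower than more than 2 of its 9 partners in this way. The 9 Ctla4 comparisons share the same Ctla4 values, so they are not independent. Il2ra, Ccr8 and Cd28 reached the filter through the Cr1l tumours, which favours lower Ctla4 ratios there, also in the ratio to Cd28 above. The summed TPM of keratinocyte genes, a sign of skin in the sample, overlapped between the groups but was highest in a Vec tumour. All 5 of these genes that were tested had negative fold changes, 2 with an unadjusted p below 0.05 by limma. Of all 14954 genes tested, 55.4% were positive and 908 were lower at an unadjusted p below 0.05. Sfn did not overlap, at 3.00, 2.64, 6.90 and 3.81 TPM in Cr1l tumours and 8.70, 55.69 and 7.25 TPM in Vec tumours. Among all genes tested, 6.67% were lower without overlap. The 6 genes summed to 3.98, 3.05, 51.6 and 6.08 TPM across the 4 Cr1l tumours, against 56.8, 900 and 14.9 TPM across the 3 Vec tumours, with Krt5 at 0 in 3 Cr1l tumours. Their part in the Ctla4 result was not tested.

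Foxp3 relative to Cd4 was also lower in each Cr1l tumour. The TPM ratio was 0.538, 0.406, 0.428 and 0.283 in Cr1l tumours and 0.843, 0.678 and 2.06 in Vec tumours, the last resting on a Cd4 level of 0.33 TPM in Vec 7. The log2 difference was -0.87 (exact permutation p = 0.0571, adjusted p = 0.114 over the 6 ratios). By limma the log2 fold change of Cd4 was 1.41 and that of Foxp3 0.54. Relative to 14953 other tested genes on log2(TPM + 1), Foxp3 was lower in Cr1l tumours without overlap for 1.61% and higher for 4.29%. The share of all genes that were lower relative to Cd4 in this way is not given here. Macrophage genes summed highest in Cr1l 3 and Cr1l 4, which also had the highest Cd4, and their part in this ratio was not tested. Foxp3 relative to Cd3e overlapped, at 0.254, 0.664, 0.373 and 0.226 in Cr1l tumours and 0.402, 0.281 and 0.372 in Vec tumours (log2 difference -0.16, exact permutation p = 0.714). The ratios of Icos to Cd3e (-0.21, exact permutation p = 0.686) and Il2ra to Cd3e (0.36, exact permutation p = 0.429) overlapped as well.

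**Figure D4:**
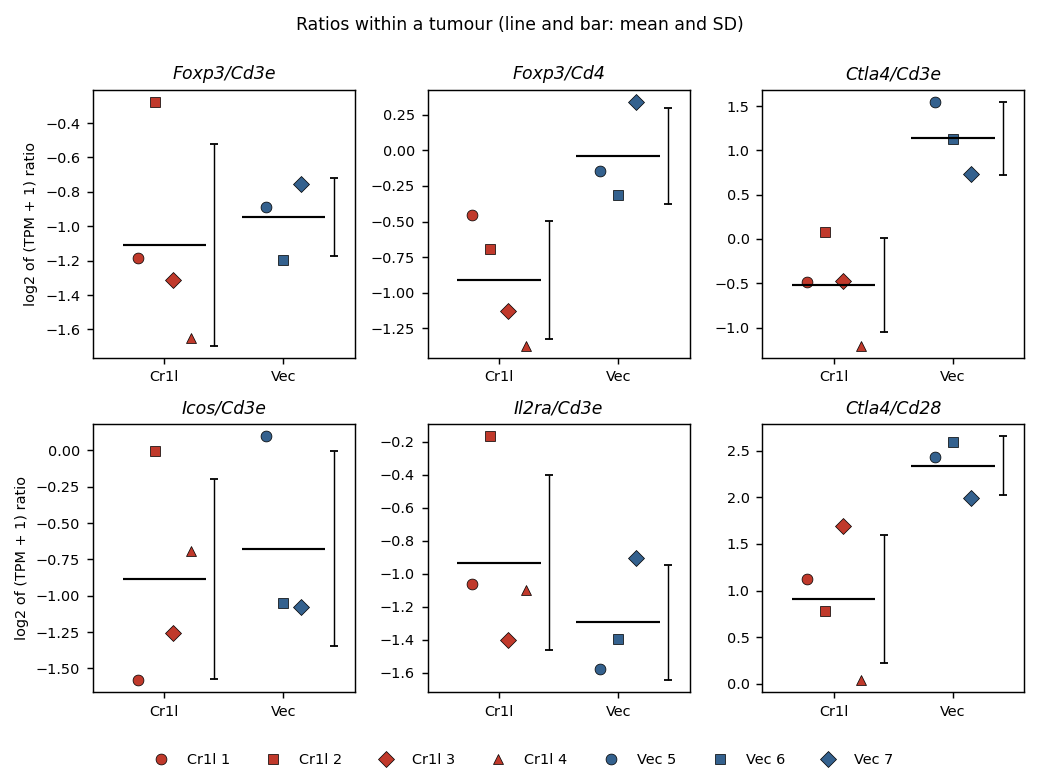
Log2 ratio of (TPM + 1) for the 6 pairs of genes in each tumour, with the group mean (line) and SD (bar). The groups do not overlap for Foxp3/Cd4, Ctla4/Cd3e and Ctla4/Cd28, with Cr1l tumours lower in each.

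A separate readout of T cells came from the authors' antigen receptor table. It gives a number of distinct clonotypes and a larger value labelled Clone, which is not a number of distinct clones. For the alpha chain of the T cell receptor, the Clone values were 20, 10, 199 and 46 in Cr1l tumours and 25, 13 and 5 in Vec tumours. The alpha clonotypes numbered 12, 5, 81 and 17 in Cr1l tumours and 16, 6 and 4 in Vec tumours. For the beta chain, the Clone values were 19, 28, 274 and 81 in Cr1l tumours and 35, 25 and 17 in Vec tumours. The beta clonotypes numbered 11, 14, 119 and 26 in Cr1l tumours and 21, 10 and 8 in Vec tumours. On log2 of the Clone value plus 1 the exact permutation p was 0.286 (alpha) and 0.314 (beta). As with the transcripts, Cr1l 3 and Cr1l 4 were highest and the other 2 Cr1l tumours lay within or near the Vec range. Neither the Clone values nor the clonotype numbers are scaled to depth.

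Of the 9 ligands of these receptors, 6 reached the filter, Ccl1 through the Cr1l tumours alone. The other 5 were positive, as were 7331 of the 14003 genes that did not reach the filter in that way. The adjusted threshold was passed by 0 of the 6. Tnfsf9, the ligand of 4-1BB, was the ligand whose groups did not overlap, as was its receptor (9.29% of all genes were higher without overlap). It stood at 20.15, 25.26, 15.84 and 28.10 TPM in Cr1l tumours and 13.80, 7.97 and 12.58 TPM in Vec tumours (log2 fold change 0.91, SE 0.26, unadjusted p = 0.00772, adjusted p = 0.224 by limma; 0.92 with an adjusted p of 0.0402 in the authors' deposited table). Cr1l 3, the tumour richest in T cell RNA, had the lowest Tnfsf9 level of its group.

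The ligands of CCR8 had wide ranges. Ccl1 was at 0.58, 1.09, 7.85 and 2.50 TPM in Cr1l tumours and listed at 0, 0.80 and 0 TPM in Vec tumours (1.39, adjusted p = 0.323). Ccl8, which binds CCR8 in mice, was at 211, 352, 3512 and 1718 TPM in Cr1l tumours and 362, 368 and 155 TPM in Vec tumours (1.58, SE 0.94, adjusted p = 0.431). Cd86, the ligand that CD28 and CTLA-4 share on antigen-presenting cells, was at 3.05, 3.38, 27.1 and 15.4 TPM in Cr1l tumours and 7.21, 2.53 and 1.26 TPM in Vec tumours (1.24, adjusted p = 0.444). Cd80, the other shared ligand, had a fold change of 0.69 (adjusted p = 0.452), and Icosl, the ligand of ICOS, 0.47 (adjusted p = 0.581). Il2, Tnfsf4 and Tnfsf18 stayed under the filter, at no more than 0.26, 0.36 and 1.38 TPM in any tumour. Of the 6 ligands tested, all but Tnfsf9 were highest in Cr1l 3 and next in Cr1l 4. The summed TPM of the macrophage and of the dendritic cell genes had that order too, though not every gene in them did. The part of those cells was not tested.

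**Figure D5:**
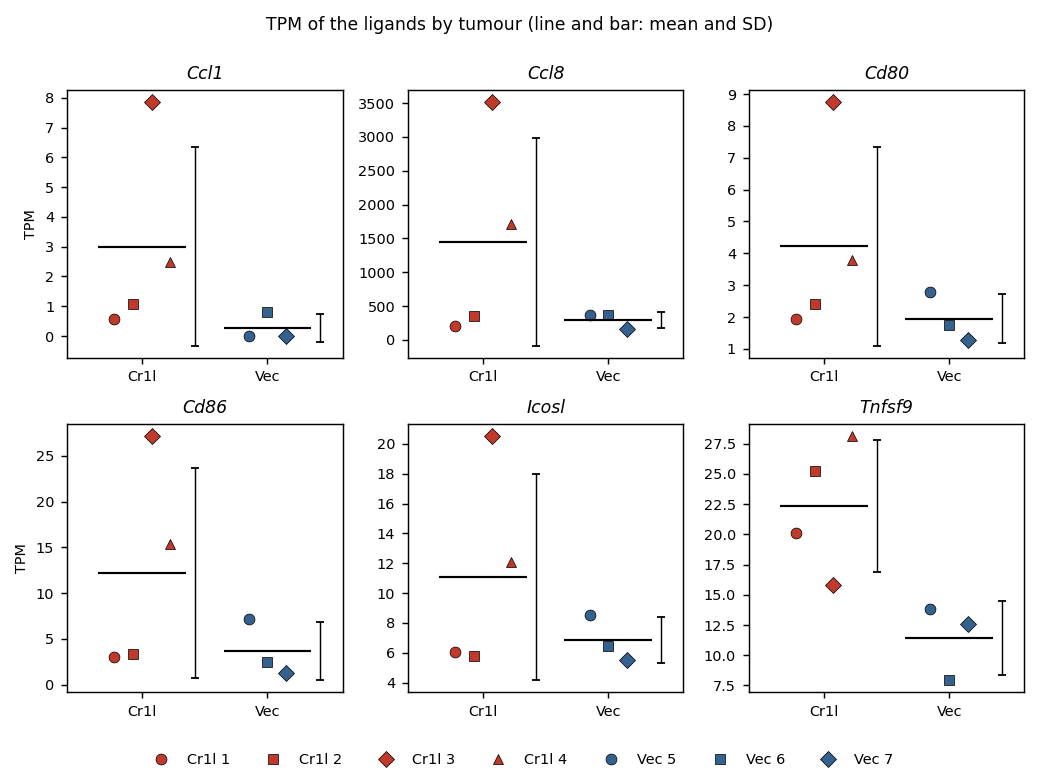
TPM of the 6 ligands that reached the filter, by tumour, with the group mean (line) and SD (bar). Tnfsf9 is the panel in which all Cr1l tumours lie above all Vec tumours; in the other 5 panels Cr1l 3 is the highest point.

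Other genes of the pathway were mostly positive, with 0 genes of these lists past the adjusted threshold. Among all 14954 genes tested, 55.4% were positive. By limma 9.49% of them (1419) were higher at an unadjusted p below 0.05, and 908 were lower. Among the 14003 genes that did not reach the filter through the Cr1l tumours, 7331 were positive and 1194 were higher at an unadjusted p below 0.05. Of 18 further regulatory T cell genes tested, 4 reached the filter through the Cr1l tumours; of the other 14, 13 had positive fold changes (median 0.53) and 1 an unadjusted p below 0.05. That gene was Il1rl1, the IL-33 receptor, at 3.13, 3.94, 12.16 and 14.25 TPM in Cr1l tumours and 5.21, 0.48 and 0.59 TPM in Vec tumours (1.71, adjusted p = 0.293). Nrp1 (1.13, adjusted p = 0.325), Tnfrsf1b (1.57, adjusted p = 0.378) and Capg (0.45, adjusted p = 0.433) came next. Many of this list are also transcribed by macrophages, dendritic or stromal cells.

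Of the other TNF receptor family costimulators and their ligands, 6 of 11 were tested. Tnfrsf25, Tnfsf14 and Btla averaged under 1 TPM in Vec tumours and reached the filter through the Cr1l tumours, which favours positive values. The other 3 were positive, 2 of them with an unadjusted p below 0.05 by limma. Among the 14003 genes that did not reach the filter through the Cr1l tumours, the numbers were 7331 and 1194. Tnfrsf25, the death receptor 3 of T cells, stood at 1.84, 1.66, 7.43 and 5.17 TPM in Cr1l tumours and 0.81, 0.14 and 0.81 TPM in Vec tumours (1.52, SE 0.47, adjusted p = 0.238 by limma; 2.71 with an adjusted p of 0.0158 in the authors' deposited table). Its groups did not overlap, where 9.29% of all genes tested were higher without overlap. Tnfrsf14, the receptor HVEM, and its ligand Tnfsf14, known as LIGHT, likewise did not overlap (1.28, adjusted p = 0.259, and 1.40, adjusted p = 0.291). Cd40, the receptor through which helper T cells activate B cells and dendritic cells, had a fold change of 1.69 (adjusted p = 0.306) with groups that overlapped. The 9 B and plasma cell genes summed to 172.8 to 1312 TPM in Cr1l tumours and 9.55 to 34.7 TPM in Vec tumours, and their part in the Cd40 values was not tested.

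Signalling genes downstream were mostly shared by many cell types. Of 11 genes of IL-2 receptor signalling, 10 were positive (median 0.54) and 1, Socs1, had an unadjusted p below 0.05 by limma. Among all genes tested, 55.4% were positive (median 0.05) and 9.49% were higher at an unadjusted p below 0.05. Socs1, a feedback inhibitor that IL-2 and interferons induce, stood at 4.39, 4.16, 16.37 and 6.20 TPM in Cr1l tumours and 2.29, 1.63 and 1.86 TPM in Vec tumours (1.40, SE 0.43, adjusted p = 0.238). Of 24 genes that transmit CD28 and TNF receptor signals, 20 were positive (median 0.42) and 4 had an unadjusted p below 0.05 by limma. The shares of all genes are those just given. Traf2, an adaptor that binds 4-1BB, OX40 and GITR, stood at 18.9, 17.5, 22.2 and 17.6 TPM in Cr1l tumours and 13.7, 8.77 and 14.5 TPM in Vec tumours (0.61, SE 0.20, adjusted p = 0.251). Relb (0.78, adjusted p = 0.314), a subunit of NF-kappaB, also did not overlap, whereas Pik3cd (1.13, adjusted p = 0.314) and Lcp2 (1.70, adjusted p = 0.317) did. Among all genes tested, 9.29% were higher without overlap.

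The genes whose levels followed Foxp3 most closely over the 7 tumours were Nfkbie (Pearson's r = 0.995), Sh2b3 (0.990), Il18r1 (0.985), Samd3 (0.982) and Map3k7cl (0.981). Over the 6 tumours without Cr1l 3 their r was 0.946, 0.908, 0.900, 0.797 and 0.889. The mean log2(TPM + 1) of the 10 genes was followed closely by Itgax (0.997, and 0.990 without Cr1l 3), Bcl2a1d (0.995, and 0.984), Pag1 (0.993, and 0.981) and Itgal (0.992, and 0.980). These genes were picked for the highest r among tested genes over 7 tumours, so the values are descriptions. The part of leukocyte content in them was not tested.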

How the data were processed

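Per the labels' protocols, poly-A RNA of 7 tumours went into non-directional libraries. The submitters' processing notes name RSEM, DESeq2 and mm39 (versions, aligner and annotation: not given in the sources used here). Expression was deposited by the authors as log2(TPM + 1) values per gene symbol. With the logarithm undone, 37 of 28233 genes held a value without 2 decimals (tolerance 1e-06 on 100 times the TPM). TPM keeps no depth. The authors' deposited comparison holds, per the file headers, the mean over tumours of normalized counts (a signal), a log2 fold change and p-values; its direction was read from Cr1l, and 27182 of 28369 identifiers matched a symbol. The deposited repertoire table holds clonotype numbers and values labelled Clone.

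Tumours were grouped by their labels, where numbers run from 1 to 7 and pair nothing; p-values measure the spread between these tumours. Genes averaging 1 TPM or more were tested on log2(TPM + 1) by limma 3.58.1 (R 4.3.3) with a variance trend, two-sided, adjusted by Benjamini-Hochberg over all 14954, at 0.05. Fold changes on this scale understate those of low genes. Exact permutation tests were two-sided. The limma fit was tested on simulated data, and the permutation code was only checked on a constructed series with fully separated groups. Figures were drawn with matplotlib 3.10.9.

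The genes and lists were chosen with earlier results of these data known. Named are the members, Cr1l, the ligands, Cd3e, Cd4 and Cd8a, from each list at most 4 genes (smallest p), and the 5 genes most like Foxp3 and the members' mean, of which 1 is not reported here. Krt5, Ncr1, Klrc1, Gzmb, Ccdc22 and Gm16008 were chosen after their values were seen. With arrayWeights a convergence warning was given. Alternatives were another pseudocount (0.1), filters (none, or 0.2 TPM), scaling, variance models, weights, covariates and left-out tumours; leaving out Cr1l 3 and Cr1l 4 together was added after seeing the data.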

Additional observations from a re-analysis of the deposited data

Results flagged for a closer look

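The 4 Cr1l tumours were searched for a tumour far from the others with Dixon's test at its 95% critical value; chance gives about 1 in 20, and 4 values give the test little power. On the TPM scale 6 of 60 measures passed, and in each the far tumour was Cr1l 3, as its highest value. Among the members these were Ctla4 (gap 0.894 of the range), Foxp3 (0.865) and Ccr8 (0.843). The others were Socs1 (0.833), the summed TPM of endothelial cell genes (0.855), at 173.65, 155.92, 439.33 and 128.66 in Cr1l 1 to Cr1l 4, and the summed TPM of keratinocyte genes (0.938). On the log2 scale 0 of 18 measures passed.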

How the results depend on the processing

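Of the 10 genes, 0 passed the adjusted threshold in any of the 17 alternative fits. Ctla4 stayed negative and Il2ra and Tnfrsf9 positive in every fit that tested them. The number of all genes past the threshold, 2 with all tumours, was 6 with a pseudocount of 0.1, 0 with no filter, 10 with median-of-ratios scaling, 13 with no variance trend, 14 with arrayWeights, 0 to 8 when 1 tumour was left out and 9 without Cr1l 3 and Cr1l 4. The number of members with a positive fold change, 9 of 10, was 4 with a covariate for macrophages (their list mean) and 1 of the 6 tested without Cr1l 3 and Cr1l 4, a setting chosen after seeing the data. The signs of some members turned, and the cause was not tested. With the macrophage covariate Foxp3 was -0.029, Ccr8 -0.16, Icos -0.45, Tnfrsf4 -0.80 and Cd28 -0.21. With the T cell covariate Icos was -0.030 and Tnfrsf4 -0.57. Without Cr1l 3 and Cr1l 4, Ikzf2 was -0.066, Icos -0.52, Tnfrsf4 -0.99 and Tnfrsf18 -0.084. Without Vec 6 and Vec 7, whose titles carry a further number, Icos was -0.45, Tnfrsf4 -0.38 and Cd28 -0.0047, with Vec 5 assumed to vary like the Cr1l tumours. Tnfrsf4 was also -0.022 with a pseudocount of 0.1, -0.032 with median-of-ratios scaling, -0.20 with arrayWeights, and -0.56 to 0.42 when 1 tumour was left out, negative without Cr1l 3, Cr1l 4 or Vec 7.

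No paired analysis was possible because the tumours of the groups share no numbers. The Ctla4/Cd3e log2 ratio was -1.86 to -1.43 when 1 tumour was left out, and -1.34 without Cr1l 3 and Cr1l 4, where the smallest possible exact permutation p is above 0.05. With a pseudocount of 0.1, Foxp3/Cd4 was -1.28 and Ctla4/Cd28 -1.96 (exact permutation p = 0.0286 each). Foxp3/Cd3e turned to 0.069 with 4 CD3 genes in place of Cd3e and to 0.21 without Cr1l 3 and Cr1l 4, and Icos/Cd3e to 0.025 with 4 CD3 genes. Leaving out 1 tumour gave -0.44 to 0.019 for Foxp3/Cd3e and -0.50 to 0.18 for Icos/Cd3e. The log2 difference in beta chain Clone values was -0.090 without Cr1l 3 and Cr1l 4. No gene's count in a single tumour is known, so values under 1 TPM have an unknown counting error. The authors' mean of normalized counts over the tumours was 16.1 for Ccr8, 73.8 for Cd28, 84.6 for Il2ra and 89.9 for Foxp3.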
